A study of Mus musculus with 17 samples.

Results

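The serum of 7 transgenic AT-ATX mice with spontaneous tumors was compared with that of 3 wild-type mice, which makes 10 of the 17 serum samples of the study. The samples were assigned to groups by their labels. The wild-type mice were healthy and of the FVB/N strain. AT-ATX mice carry an Autotaxin transgene, and the 7 AT-ATX mice without tumors enter here only beside the tumor group. Transgene and tumors differ together between the groups compared, so their parts in a difference cannot be told apart. The labels name no promoter for the transgene, no tumor type or site, no age, no sex and no treatment, and they give the FVB/N strain for the wild-type mice only. Each sample is named as 1 mouse, and a question mark stands in the label of tumor replicate 5. Each label ends in an F code, and those of the transgenic mice also hold a number. Some of these codes and numbers recur between groups and also within a group, and their meaning is not stated. Nothing further says how the mice were sampled, so p-values measure the spread between these samples.

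MicroRNAs (miRNAs) are short RNAs that pair through their seed, the bases near the 5′ end, with messenger RNAs and lower their output. In blood they travel in vesicles, protein complexes and lipoproteins, and several are made almost wholly by 1 tissue, such as liver or muscle, so serum carries miRNAs from many organs and from blood cells. Autotaxin is a secreted enzyme that makes lysophosphatidic acid, a signaling lipid that acts on cells through receptors at their surface. The study asked which circulating miRNAs differ between wild-type mice and Autotaxin transgenic mice with or without tumors.

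The sequences below are a selection from the liver list and from chromosome X, and some miRNAs with larger differences are not among them. The sequences are the RefSeq mature miRNAs (GRCm38.p6), 5′ to 3′, with the seed, bases 2 to 8, in capitals. The first 5 were lower in tumor mice and are miRNAs of the liver list. miR-192-5p and miR-192-3p are the arms of 1 hairpin, at chr19:6264857-6264877 and chr19:6264900-6264921 on the plus strand, and miR-194-5p is encoded next to it, at chr19:6264658-6264679, and at a further site, chr1:185313325-185313346. miR-802-5p lies at chr16:93369737-93369758 and miR-455-3p at chr4:63256904-63256924, both on the plus strand.
miR-802-5p: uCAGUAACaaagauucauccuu
miR-192-5p: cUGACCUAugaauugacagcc
miR-192-3p: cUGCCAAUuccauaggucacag
miR-194-5p: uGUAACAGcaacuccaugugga
miR-455-3p: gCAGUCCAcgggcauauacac
The next 4 are encoded on chromosome X, all on the minus strand, and lay higher in tumor mice. miR-500-3p (chrX:7237695-7237716), miR-501-3p (chrX:7241270-7241291) and miR-362-3p (chrX:7241984-7242005) come from 1 cluster, and the first and second share the seed AUGCACC. miR-503-5p (chrX:53054027-53054049) belongs to another. Of the 4, miR-501-3p did not pass the test and is shown for its shared seed.
miR-500-3p: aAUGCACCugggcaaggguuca
miR-501-3p: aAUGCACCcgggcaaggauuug
miR-362-3p: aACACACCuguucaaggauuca
miR-503-5p: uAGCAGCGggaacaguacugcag

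The panel held 357 miRNA assays, 317 named for mouse and 40 for rat, and 8 control assays. The values are threshold cycles (Ct), where a lower Ct means more template. A level is the average Ct of 252 miRNA assays, those with a value in every one of the 17 samples, minus the Ct of the assay itself. It is on a log2 scale and relative to the panel mean, not an amount per volume of serum, so a tissue that released more and other tissues that released less cannot be told apart. Tumor mice had 337.4 ± 14.6 (SD, n = 7) assays detected against 347.3 ± 7.51 (n = 3) in wild-type mice. Over the shared assays the mean Ct was 29.8 ± 1.18 in tumor mice and 28.4 ± 1.5 in wild-type mice, and the hemolysis index (Ct of miR-23a-3p minus Ct of miR-451a of red blood cells) was 3.97 ± 1.97 and 5.61 ± 2.07. None of these 3 measures passed the exact permutation test (two-sided, unadjusted p from 0.175 to 0.35, each at adjusted p = 0.35), and the smallest exact p that 7 mice against 3 allow is 0.00833.

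In tumor mice, 6 miRNAs of the liver list fell relative to the panel mean, among them miR-802-5p and both arms of miR-192, and miRNAs of several other origins rose. Of the 6, miR-192-3p and miR-455-3p were put on the list with their lower level against tumor-free mice already known. The liver miRNA miR-122-5p did not pass. Of the 338 assays tested, 28 passed (8.28%), 14 higher (4.14%) and 14 lower (4.14%), in limma over all 3 groups with Benjamini-Hochberg adjustment at 0.05. All adjusted p-values of single miRNAs below come from this fit. The changes ran from 2.90-fold to 19.9-fold. Of these 28, the 2 groups did not overlap in 20, 10 higher and 10 lower, and over all tested assays they did not overlap in 31 (9.17%), 18 higher (5.33%) and 13 lower (3.85%). The median difference of all tested assays was 0.19, with 183 above 0 and 155 below. The count depended on single mice of both groups. Leaving out wild-type replicate 1, 2 or 3 gave 27, 17 or 8, and leaving out tumor replicate 3 or 4 gave 38 or 49. With the 10 mice alone, without the tumor-free mice that share the estimate of spread, 1 assay passed (the rat assay of miR-802-5p; 59 at an unadjusted p under 0.05).

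Without any correction between samples (raw Ct), 15 assays passed, 0 higher and 15 lower, and with the spike-in RNAs as scale 8 passed, 0 higher and 8 lower (87 and 84 at an unadjusted p under 0.05). These scalings move the median difference of all assays to -1.22 and -1.08. All 14 miRNAs that rose thus rose relative to the panel mean, and their calls are lost on these scales, although none of the 28 turned sign in any alternative in which it was fitted.

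Of the 13 tested miRNAs of the liver list, 11 lay lower in tumor mice and 6 passed, all lower, and the list's median difference was -1.57. Over all 338 tested assays 155 lay lower and 14 (4.14%) passed as lower. miR-192-3p and miR-455-3p were put on the list when their lower level against tumor-free mice was already known, and the list as a whole is no independent evidence of its direction. The median was -2.95 with raw Ct, -2.84 with spike-ins and -1.61 with the hemolysis index as a covariate.

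miR-802-5p, a hepatocyte miRNA studied in obesity and glucose metabolism, stood at 1.52, 0.47 and 0.87 in the 3 wild-type mice and between -2.32 and -0.68 in tumor mice (median -1.15). Every tumor mouse lay below every wild-type mouse. The difference was -2.26 (SE 0.48, 4.8-fold lower, adjusted p = 0.00776). Its rat counterpart read -2.21, -2.38 and -0.52 in wild-type mice and -6.83 to -4.67 in the 6 tumor mice in which it was detected (median -5.22), a difference of -3.76 (SE 0.60, 13.5-fold lower, adjusted p = 0.00193). The groups did not overlap there either. The rat assay was close to the limit of detection in tumor mice, with a mean Ct of 34.9. With a limit of Ct 35 it was detected in 3 of 7 tumor mice and could not be tested. Both assays target near-identical RNAs and are not independent. Without any 1 of the 17 mice both calls were kept.

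The miR-192 hairpin, expressed in liver and gut, fell in both arms. miR-192-5p stood at 6.46, 5.26 and 6.0 in wild-type mice and at 3.73 to 4.87 in tumor mice (median 4.32), a difference of -1.57 (SE 0.39, 2.96-fold lower, adjusted p = 0.0199). miR-192-3p stood at 0.05, -0.90 and 0.26 against -3.68 to -1.23 (median -2.62), a difference of -2.37 (SE 0.48, 5.15-fold lower, adjusted p = 0.00776). In neither arm did the groups overlap. The call of miR-192-3p was kept without any 1 of the 17 mice, while that of miR-192-5p was lost without wild-type replicate 1 (-1.30, adjusted p = 0.0822) or 3 (-1.55, adjusted p = 0.0815). miR-194-5p, which shares a transcript with miR-192, stood at 5.39, 3.82 and 4.33 against 0.88 to 4.24 (median 1.60), with 6 of 7 tumor mice below all wild-type mice. Its difference was -2.56 (SE 0.63, 5.90-fold lower, adjusted p = 0.0190), and it did not pass without wild-type replicate 1 (-2.13, adjusted p = 0.0697) or 3 (-2.68, adjusted p = 0.0683). The 3 assays of this cluster on chromosome 19 thus all passed. miR-215-5p, which has the seed of miR-192-5p (UGACCUA) and lies beside the second copy of miR-194 on chromosome 1, differed by -0.06 and did not pass.

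miR-455-3p, which lies within a collagen gene and is also found in cartilage and brown fat, stood at 0.75, -0.77 and 0.59 in wild-type mice and at -5.40 to -1.24 in tumor mice (median -3.36). All 7 tumor mice lay below the wild-type mice, and the difference was -3.54 (SE 0.75, 11.6-fold lower, adjusted p = 0.00776). The other arm, miR-455-5p, differed by -1.62 and did not pass (adjusted p = 0.0542). miR-101b-3p, a miRNA of liver and other tissues, fell from 5.11, 5.03 and 3.93 to 2.56 to 3.84 (median 3.27), a difference of -1.57 (SE 0.42, adjusted p = 0.0263) with no overlap. That call was lost without wild-type replicate 1 (-1.37, adjusted p = 0.0919) or 2 (-1.40, adjusted p = 0.104). Its near relative miR-101a-3p differed by -1.25 (adjusted p = 0.0593).

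miR-122-5p, the most abundant hepatocyte miRNA, did not pass. It stood at 9.22, 7.21 and 7.96 in wild-type mice and at 4.44 to 8.48 in tumor mice (median 6.75), with 6 of 7 tumor mice below all wild-type mice. The difference was -1.75 (SE 0.71, adjusted p = 0.136). The remaining members of the list differed by -0.26 (miR-148a-3p), -0.13 (miR-193a-3p), 0.37 (miR-365-3p) and 1.13 (miR-33-5p), none of which passed. The last of these is encoded in a gene of sterol control and is not specific to liver. The liver miRNAs that passed thus included both arms of miR-192 and their neighbor miR-194 but not miR-122.

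**Figure D1:**
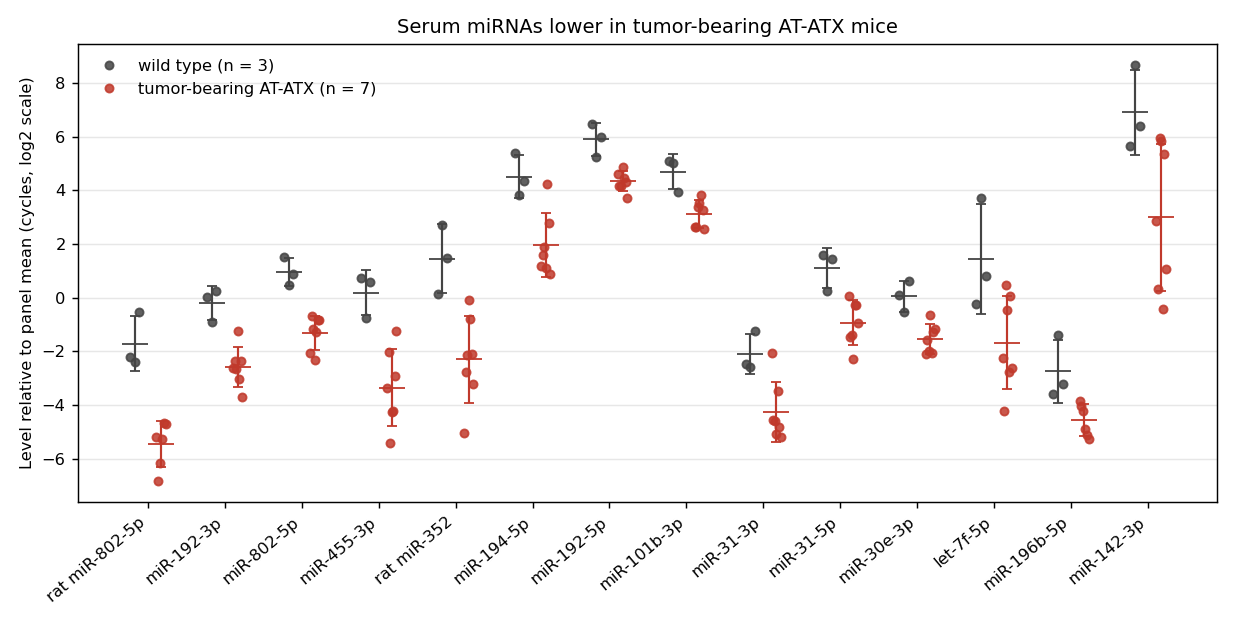
Levels (log2, relative to the panel mean) of the miRNAs that passed as lower in tumor mice, one point per mouse for wild-type and tumor mice, with the mean and SD of each group. In miR-802-5p, miR-192-3p and miR-455-3p all 7 tumor mice lie below all 3 wild-type mice.

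The other 7 assays that fell belong to several tissues. miR-31-5p and miR-31-3p, the arms of a hairpin known from squamous epithelium and from tumors, fell by 2.03 (SE 0.56, adjusted p = 0.0275) and by 2.15 (SE 0.59, adjusted p = 0.0275). miR-31-5p stood at 1.60, 0.23 and 1.45 in wild-type mice and at -2.29 to 0.05 in tumor mice (median -0.93), with no overlap, while for miR-31-3p 6 of 7 tumor mice lay below all wild-type mice. With wild-type replicate 3 left out neither arm passed (-1.88 and -1.75, adjusted p = 0.104 and 0.132), and nor did miR-31-5p with replicate 1 left out (-1.79, adjusted p = 0.0936). On the epithelium list, 6 of 12 members lay lower and only this hairpin passed: miR-200c-3p differed by -1.42 and miR-205-5p by 1.43, and the list's median was -0.03.

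miR-142-3p, made in blood cells of all kinds, stood at 5.64, 8.68 and 6.39 in wild-type mice and ranged from -0.42 to 5.95 in tumor mice (median 2.87). Of the 7, 5 lay below all wild-type mice, and the difference was -3.91 (SE 1.19, 15.0-fold lower, adjusted p = 0.0467). The opposite arm, miR-142-5p, differed by 0.86 (adjusted p = 0.405). The call of miR-142-3p was kept in 4 of the 17 fits that left out 1 mouse (-3.02 without wild-type replicate 2, adjusted p = 0.232) and lost with the hemolysis index as a covariate.

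let-7f-5p, of the let-7 family that restrains growth genes in differentiated cells, stood at -0.22, 3.73 and 0.80 against -4.22 to 0.48 (median -2.23). The groups overlapped, with 5 of 7 tumor mice below all wild-type mice, and the difference was -3.11 (SE 0.92, 8.65-fold lower, adjusted p = 0.0419). That call was kept in 5 of the 17 fits without 1 mouse, and the difference was -1.96 without wild-type replicate 2 (adjusted p = 0.294). The panel tested 10 assays with the let-7 seed (GAGGUAG), miR-1961 among them, and all lay lower, from -3.11 to -0.30, of which 1 passed. Of all 338 tested assays 155 lay lower and 14 (4.14%) passed as lower. let-7a-5p differed by -2.01 (adjusted p = 0.0644). At equal hemolysis index the median of the 9 let-7 family members was -0.38 in place of -1.05, and let-7f-5p no longer passed.

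The rat assay of miR-352 fell by 3.75 (SE 0.84, 13.4-fold lower, adjusted p = 0.0100), from 0.14, 2.71 and 1.5 to between -5.02 and -0.09 (median -2.12), with no overlap. It did not pass without wild-type replicate 2 (-3.12, adjusted p = 0.0671) or 3 (-3.75, adjusted p = 0.0520). miR-30e-3p fell by 1.59 (SE 0.45, adjusted p = 0.0332), and miR-30a-3p, which has the same seed (UUUCAGU), differed by -1.57 (adjusted p = 0.0563). In both, every tumor mouse lay below every wild-type mouse. The call of miR-30e-3p was lost without wild-type replicate 1 (-1.59, adjusted p = 0.0697), wild-type replicate 3 (-1.35, adjusted p = 0.132) or tumor replicate 1 (-1.47, adjusted p = 0.0509). miR-196b-5p, a miRNA of the Hox gene clusters that pattern the body axis, fell by 1.82 (SE 0.55, adjusted p = 0.0463), with all 6 tumor mice in which it was detected below the wild-type mice. It passed in 6 of the 17 fits without 1 mouse and differed by -1.15 without wild-type replicate 2 (adjusted p = 0.296).

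Among the miRNAs that rose were members of 2 clusters on chromosome X. miR-500-3p stood at -3.64, -3.13 and -3.75 in wild-type mice and at -2.01 to -0.91 in tumor mice (median -1.15), a difference of 2.12 (SE 0.41, 4.36-fold higher, adjusted p = 0.00776). miR-362-3p of the same cluster stood at -0.24, -0.49 and -0.25 against 0.64 to 2.22 (median 1.17), a difference of 1.54 (SE 0.42, 2.90-fold higher, adjusted p = 0.0275). In both, all 7 tumor mice lay above all wild-type mice. The call of miR-500-3p was kept without any 1 mouse, whereas miR-362-3p did not pass without wild-type replicate 1, 2 or 3 (1.57, 1.46 and 1.54, adjusted p = 0.0585, 0.104 and 0.0884). These miRNAs are encoded in an intron of Clcn5, a chloride transporter gene. Of the 9 tested members of that cluster 8 lay higher, 2 passed and the median was 0.95, but -0.43 with raw Ct and -0.32 with spike-ins. Across all 338 tested assays 183 lay higher and 14 (4.14%) passed as higher. miR-501-3p, with the seed of miR-500-3p, differed by 0.99 (adjusted p = 0.166), and miR-532-3p lay lower, at -0.10.

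miR-503-5p, a regulator of the cell cycle encoded with miR-322, was detected in 2 of 3 wild-type mice, at -5.36 and -4.33, and in all tumor mice, at -3.16 to -0.99 (median -1.96). The groups did not overlap, and the difference was 2.79 (SE 0.60, 6.92-fold higher, adjusted p = 0.00824). The fit used the 2 detected wild-type values, so miR-503-5p could not be tested without wild-type replicate 2 or 3. It passed in the 15 fits without 1 mouse in which it was tested. Of the 9 tested members of its cluster 8 lay higher and 1 passed, with a median of 0.66 that was -0.72 on raw Ct and -0.61 on the spike-in scale. Among all 338 tested assays 183 lay higher and 14 (4.14%) passed as higher. miR-322-5p differed by 0.40 and miR-503-3p by 1.41.

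miR-2137 and miR-1900, for which no tissue is well established, had large differences with wide spread among wild-type mice. miR-2137 stood at -3.80, 0.31 and -0.15 in wild-type mice and at 0.85 to 3.62 in tumor mice (median 2.01), a difference of 3.48 (SE 0.72, 11.2-fold higher, adjusted p = 0.00776). miR-1900 stood at -1.43, -2.85 and -4.26 against -1.03 to 3.21 (median -0.32), a difference of 3.35 (SE 0.79, 10.2-fold higher, adjusted p = 0.0159). In both, all tumor mice lay above all wild-type mice. The size for miR-2137 rests on wild-type replicate 1, without which the difference was 2.17 (adjusted p = 0.0350), and miR-1900 did not pass without wild-type replicate 3 (2.61, adjusted p = 0.104).

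miR-125b-2-3p had the largest difference among the assays that passed, 4.32 (SE 1.12, 19.9-fold higher, adjusted p = 0.0209). It stood at -3.20, -6.47 and -6.26 in wild-type mice and at -4.22 to 1.78 in tumor mice (median -1.11), so that 6 of 7 lay above all wild-type mice. It did not pass with a limit of Ct 35 or with reference miRNAs as scale. The main arm, miR-125b-5p, differed by -0.03 and did not pass. The rat assay of miR-338-3p rose by 2.55 (SE 0.66, adjusted p = 0.0209). Both calls were lost without wild-type replicate 2 (3.74 and 2.25, adjusted p = 0.104 for each) or 3 (3.81 and 2.19, adjusted p = 0.104 and 0.105). The mouse assay of that name gave 1.95 (adjusted p = 0.0857).

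Several miRNAs of white blood cells and platelets rose. miR-223-3p, the main miRNA of neutrophils and abundant in platelets, stood at 5.13, 3.84 and 4.06 in wild-type mice and at 5.02 to 7.96 in tumor mice (median 5.86), a difference of 1.96 (SE 0.56, 3.89-fold higher, adjusted p = 0.0333). The rat assay with this name read 1.02 and did not pass (adjusted p = 0.259). miR-146a-5p, induced by inflammatory signaling, stood at -0.20, -0.85 and -0.10 against 0.51 to 3.23 (median 1.63), a difference of 2.22 (SE 0.66, 4.64-fold higher, adjusted p = 0.0419) with no overlap. miR-146b-5p, with the same seed (GAGAACU), differed by 1.46 (adjusted p = 0.218). miR-326-3p rose by 2.56 (SE 0.61, adjusted p = 0.0159), with all 7 tumor mice above all wild-type mice and tumor replicate 5 far above the rest at 1.60. Of these calls, miR-146a-5p was kept in 5 of the 17 fits without 1 mouse and lost without each wild-type mouse (1.98 to 2.32). miR-223-3p did not pass without wild-type replicate 2 (1.71, adjusted p = 0.145), wild-type replicate 3 (1.79, adjusted p = 0.126) or tumor replicate 2 (1.89, adjusted p = 0.0509), nor miR-326-3p without wild-type replicate 3 (2.25, adjusted p = 0.0855).

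The lists of blood cell miRNAs were mixed. Over all 338 tested assays 183 lay higher and 14 (4.14%) passed as higher. On the myeloid list 6 of 7 members lay higher, miR-223-3p passed as higher and miR-142-3p as lower, and the median was 1.08. On the lymphocyte list 7 of 10 lay higher and 1 passed, miR-146a-5p. The B and T cell miRNA miR-150-5p differed by 0.76 and miR-155-5p of activated lymphocytes by 1.42 (adjusted p = 0.639 and 0.220). On the platelet list 4 of 6 lay higher and 2 passed, miR-223-3p and miR-326-3p, while miR-126a-3p of platelets and endothelium differed by -0.90. On raw Ct and on the spike-in scale these 3 lists had medians below 0, so their directions hold relative to the panel mean only.

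miR-29a-3p, which targets collagen and other matrix genes, stood at 3.08, 2.86 and 2.98 in wild-type mice and at 3.55 to 5.40 in tumor mice (median 4.89). All tumor mice lay above the wild-type mice, and the difference was 1.63 (SE 0.47, 3.10-fold higher, adjusted p = 0.0390). That call was kept in 6 of the 17 fits without 1 mouse and lost without each wild-type mouse (1.57 to 1.67). miR-29b-3p and miR-29c-3p, with the same seed (AGCACCA), differed by 0.80 and 0.95 and did not pass, and both turned below 0 with raw Ct and spike-ins. miR-128-3p, abundant in neurons, rose by 2.20 (SE 0.56, adjusted p = 0.0203), with 6 of 7 tumor mice above all wild-type mice. Its difference was 1.42 without wild-type replicate 1 (adjusted p = 0.116) and 2.26 without replicate 3 (adjusted p = 0.0815), and neither passed. It was the 1 member of 8 on the brain and neuron list that passed, and that list's median was 0.36, but -1.02 on raw Ct and -0.91 on the spike-in scale.

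The imprinted Dlk1-Dio3 region of chromosome 12 encodes a large group of miRNAs expressed in embryo, brain and muscle. All 12 tested members of its list lay higher in tumor mice, with a median of 1.62, and 2 passed. Of all 338 tested assays 183 lay higher and 14 (4.14%) passed as higher. The list's median was 0.02 with raw Ct, 0.18 with spike-ins and 0.93 at equal hemolysis index. With a limit of Ct 35 it was 0.32 over the members that could still be tested, which left out both that had passed. miR-300-3p stood at -7.07, -8.86 and -6.96 against -6.46 to -3.71 (median -5.17) in the 6 tumor mice in which it was detected, a difference of 2.64 (SE 0.64, adjusted p = 0.0190). miR-495-3p, at -6.55 and -8.11 in the 2 wild-type mice in which it was detected, rose by 2.51 (SE 0.75, adjusted p = 0.0459). Neither overlapped between groups, but both were measured close to the limit of detection, with mean Ct values of 36.0 and 34.9 in wild-type mice. Without wild-type replicate 2 miR-300-3p did not pass (2.03, adjusted p = 0.104), and miR-495-3p passed in 4 of the 15 fits without 1 mouse in which it was tested. miR-376a-3p differed by 2.81 and did not pass (adjusted p = 0.0542).

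**Figure D2:**
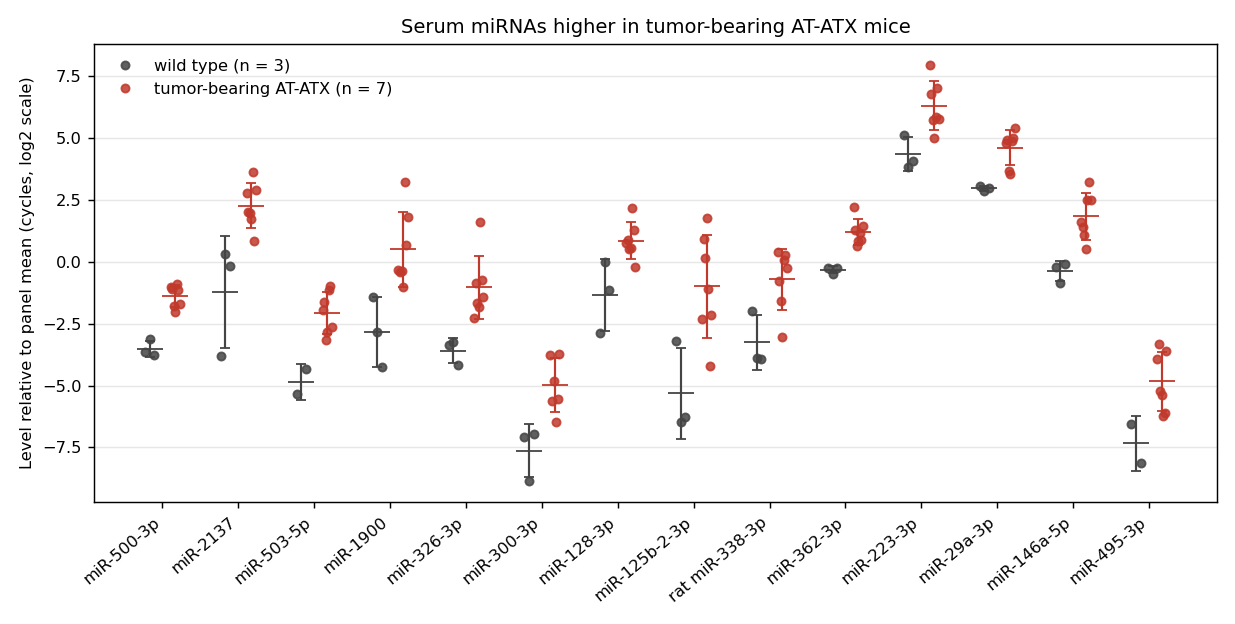
Levels (log2, relative to the panel mean) of the miRNAs that passed as higher in tumor mice, one point per mouse for wild-type and tumor mice, with the mean and SD of each group. In miR-500-3p, miR-2137, miR-503-5p and miR-1900 all tumor mice lie above the wild-type mice in which the miRNA was detected.

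In several lists no member passed, while over all 338 tested assays 183 lay higher and 14 (4.14%) passed as higher. All 6 tested miRNAs of skeletal and heart muscle lay higher, with a median of 1.73, from 1.12 (miR-1a-3p) to 2.42 (miR-499-5p, adjusted p = 0.103), and their median was 0.35 on raw Ct and -0.02 at equal hemolysis index. miR-133b-3p ranged from 0.70 to 7.69 in tumor mice and from -1.09 to 3.42 in wild-type mice. Of the endothelium, smooth muscle and fibroblast list 7 of 9 lay higher (median 0.89), but the median was -0.15 at equal hemolysis index. All 6 members of the mir-34 and mir-449 family, of which miR-34a is a target of p53, lay higher (median 0.87), miR-34a-5p at 0.98 and miR-34c-5p at 2.98 (adjusted p = 0.258 and 0.0905). The medians of the last 2 lists turned below 0 with raw Ct and spike-ins.

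On the red blood cell list all 4 members lay lower (median -0.69), miR-451a at -0.43 and miR-16-5p at -0.90. Of the 16 tested members of the mir-17-92 and paralogous clusters 14 lay lower (median -0.72), and all 5 of the mir-30 family did so (median -0.86), with miR-30c-5p at -1.84. No member of these 3 lists passed, and over all 338 tested assays 155 lay lower and 14 (4.14%) passed as lower. At equal hemolysis index the medians of these lists were 0.38, 0.01 and -0.46, so that the last kept its direction. miR-451a, 1 of the 4 on the red blood cell list, is also part of the index. The other part, miR-23a-3p, is on the myeloid list. It differed by 1.204 without passing (adjusted p = 0.141), a larger difference in size than that of miR-451a. Values at equal index are therefore not adjusted for red blood cell content alone. With the index as a covariate 26 assays passed, and 21 of them were among the 28. The 7 that no longer passed were let-7f-5p, miR-142-3p, miR-146a-5p, miR-196b-5p, miR-223-3p, miR-29a-3p and miR-495-3p.

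The list of miRNAs that tumors often raise held 7 members that lay higher and 6 that lay lower (median 0.24, but -1.14 on raw Ct and -0.50 with a limit of Ct 35). miR-31-5p, lower, was the 1 that passed. miR-21a-5p, raised in many solid tumors, stood at 6.41, 6.59 and 5.67 in wild-type mice and at 6.90 to 8.04 in tumor mice (median 7.33). The groups did not overlap, but the difference of 1.2 (SE 0.41) did not pass (adjusted p = 0.0668) and was -0.18 on raw Ct. miR-221-3p differed by 1.19 (adjusted p = 0.0982) and miR-10b-5p by 0.35. The 9 tested members of the Sfmbt2 intron cluster (median 0.56, but -1.28 on raw Ct) and the 4 of the Hox clusters (median 0.00) were split in direction, with miR-196b-5p the only 1 that passed, and both tested miRNAs of the pancreas list, miR-375-3p and miR-217-5p, lay lower without passing.

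**Figure D3:**
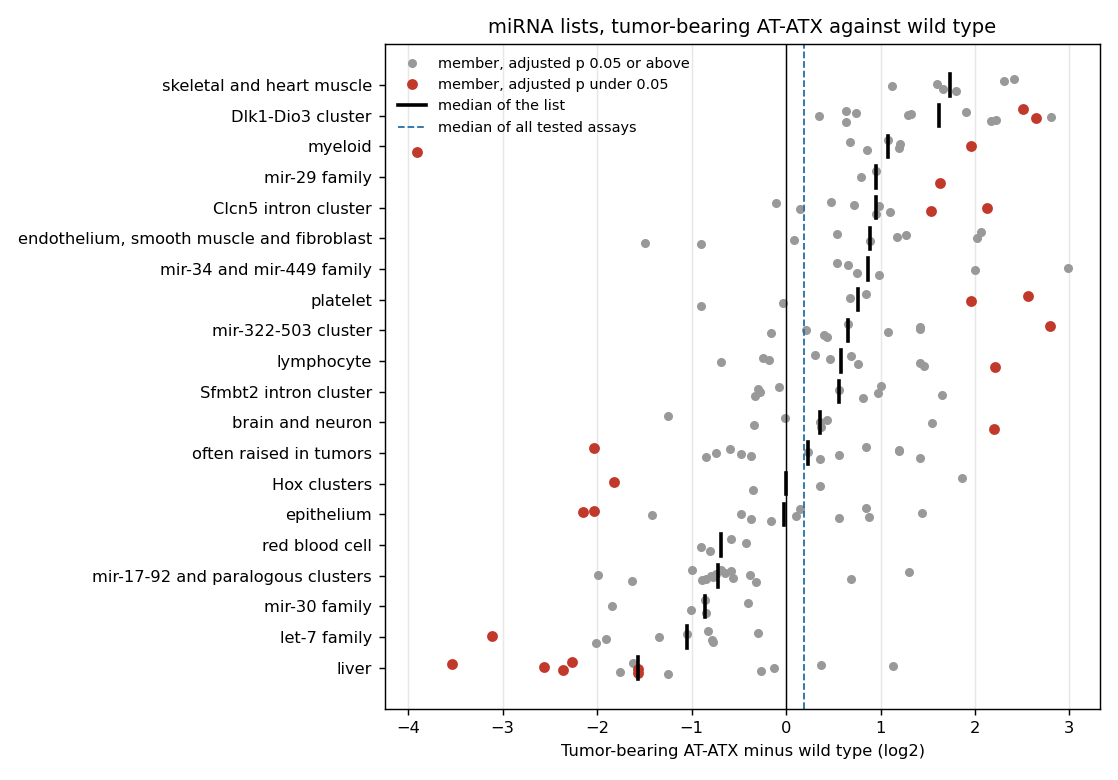
Log2 differences between tumor and wild-type mice for every tested member of each list, one point per miRNA, with the median of the list and the median of all tested assays (0.19) as a line. The liver list has the lowest median (-1.57), and the muscle and Dlk1-Dio3 lists have the highest (1.73 and 1.62).

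The tumor-free AT-ATX mice carry the transgene without tumors, and both transgenic groups share the same 3 wild-type mice, so the values are set side by side and not correlated. The mouse assay of miR-802-5p stood at 0.68 ± 0.61 (SD, n = 7) in tumor-free mice, a difference of -0.27 from wild type. Its rat assay stood at -3.32 ± 0.76, a difference of -1.61 (adjusted p = 0.157). miR-192-3p stood at -0.70 ± 0.46, a difference of -0.51. The direct test of tumor against tumor-free mice passed for 4 of the 28, both miR-802-5p assays, miR-192-3p and miR-455-3p (5 of all 338, 1.48%). Tumor-free against wild type passed for 2 of the 28, miR-1900 and miR-196b-5p, which were all that passed in that comparison (0.592%). miR-1900 stood at 2.90 ± 0.83 in tumor-free mice, above its mean of 0.51 ± 1.51 in tumor mice. For miR-146a-5p the tumor-free mean was 1.94 ± 1.14 and the tumor mean 1.83 ± 0.95, and for miR-29a-3p they were 4.37 ± 0.58 and 4.60 ± 0.71. The tests of tumor against tumor-free mice for these 2 gave adjusted p = 0.916 and 0.784, which does not show that the groups were alike.

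**Figure D4:**
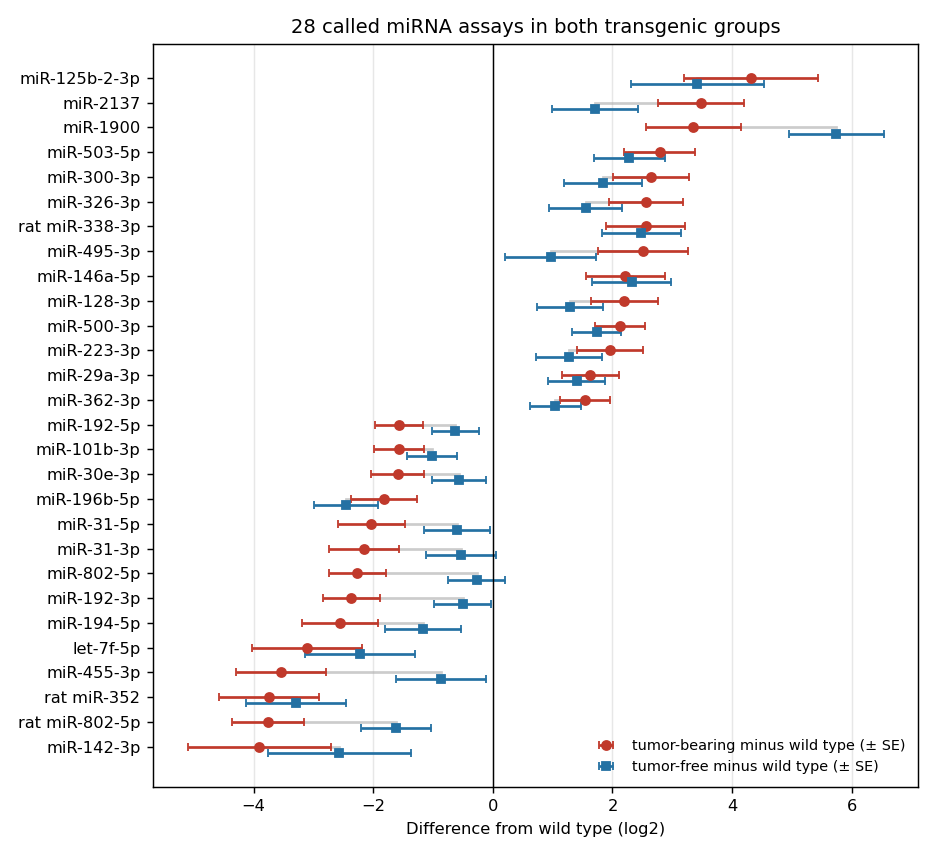
Log2 differences from wild-type mice, with SE, of tumor and of tumor-free AT-ATX mice for the 28 miRNAs that passed between tumor and wild-type mice. Tumor-free mice lie at -0.27 in the mouse assay of miR-802-5p and at -1.61 in its rat assay, and at 5.74 in miR-1900.

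The gap between the arms of a hairpin, the Ct of the 5p assay minus that of the 3p assay, is free of any scaling that adds 1 value per sample, though plate-by-plate centring and quantile normalization can move it, and it is given without a test. Of the 12 pairs with an arm that passed, the groups did not overlap in 3, those of miR-142, miR-29a and miR-196b. These 12 were chosen because an arm had passed in the same data, and the other pairs were not examined. The count is therefore no result about arms in general. In miR-142 the gap was 4.57, 4.99 and 5.0 cycles in wild-type mice and -3.41 to 2.58 in tumor mice (median 0.30), and 1.37 ± 0.76 (n = 7) in tumor-free mice. The 3p signal relative to the 5p signal was thus higher in each wild-type mouse than in any tumor mouse. In miR-29a the gap was 2.34, 3.34 and 3.50 in wild-type mice and 3.94 to 5.23 in tumor mice (median 5.0). The gap of miR-196b was measured in 4 tumor and 2 wild-type mice. In miR-31 the gap was -3.31 ± 0.84 in tumor mice and -3.19 ± 0.77 in wild-type mice, so both arms fell by like amounts. Of the 72 pairs of arms tested, both had the same sign of difference in 47. Of the 19 pairs of a mouse and a rat assay of the same name, 17 had the same sign, with a median gap of 0.32 between their differences and a largest gap of 2.12 (miR-208a-3p).

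Small nuclear RNAs on the panel also moved. RNU1A1 had a Ct of 30.9, 30.6 and 32.5 in wild-type mice and of 21.2 to 30.0 in tumor mice (median 28.4), and 24.8 ± 1.78 in tumor-free mice. All 7 tumor mice had more signal than the wild-type mice, with a raw Ct difference of -4.02 (exact permutation p = 0.0417, adjusted p = 0.167 over 8 controls). Set against the panel mean the difference was 5.40 (exact permutation p = 0.00833, adjusted p = 0.0333), and that of RNU5G was 2.37 (the same p-values). No control passed as raw Ct, where 2 of 8 had an unadjusted p under 0.05. The second of these, the spike-in UniSp6, a control of cDNA synthesis, lay lower in all tumor mice by 0.34 cycles (exact permutation p = 0.00833, adjusted p = 0.0667). U6 snRNA spread from 24.1 to 36.6 in wild-type mice alone. These values stand beside the miRNA differences, and their part in them was not tested.

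The 19 assays detected in too few mice to test did not pass in detection (Fisher's exact test, two-sided, 0 at p under 0.05, smallest 0.475). When values above Ct 35 were taken as not detected, miR-182-5p was detected in 0 of 7 tumor mice and 3 of 3 wild-type mice (Fisher's exact p = 0.00833, 1 of 97 assays outside the filter). As a level it differed by -0.37 and did not pass (adjusted p = 0.829).

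**Figure D5:**
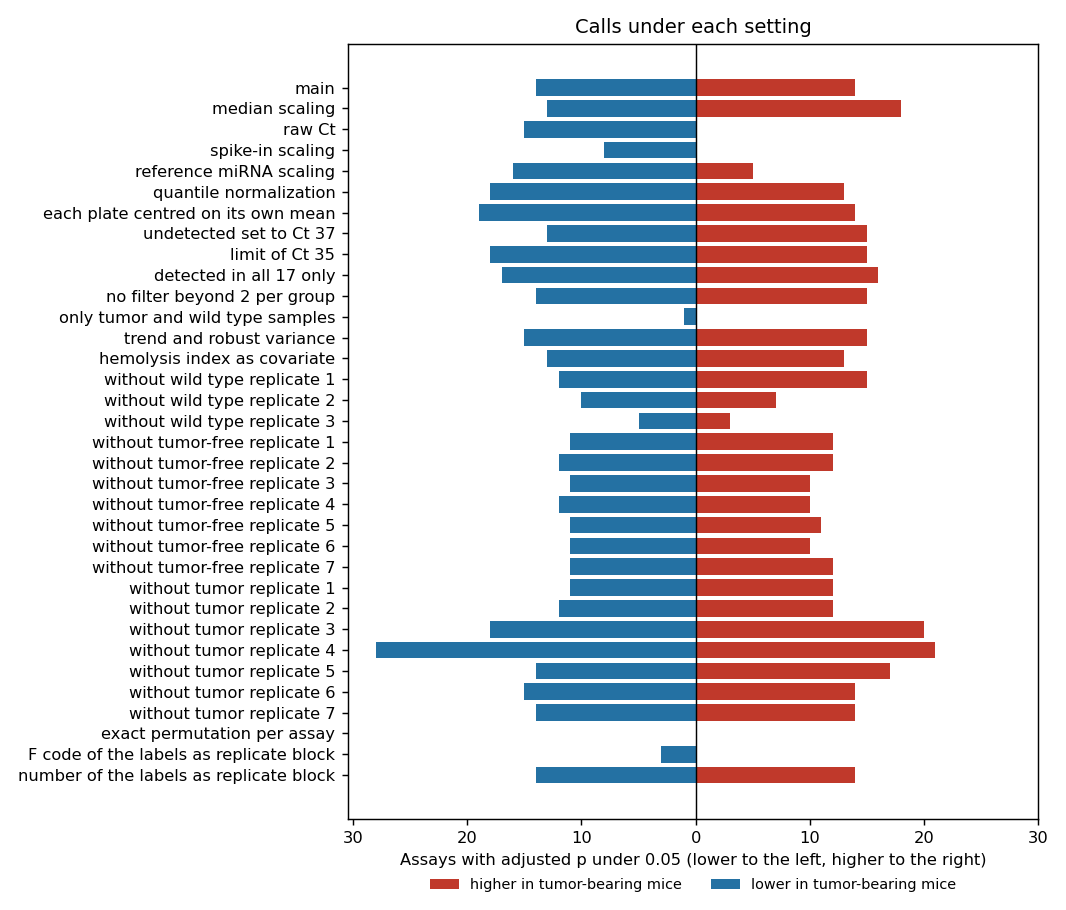
Number of assays that passed between tumor and wild-type mice under each way of processing the same Ct values, split into higher and lower in tumor mice. Raw Ct and spike-in scaling leave 0 higher, and leaving out wild-type replicate 3 leaves 3 higher and 5 lower.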

How the data were processed

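Serum from necropsy blood gave RNA (50 µL per mouse), which was measured with SYBR Green over 40 cycles on commercial serum miRNA panels of 2 plates, per the labels' protocols. The deposited values are Ct values, not normalized per the name of the file. Not given in the sources used here are the authors' threshold, their calibration between plates and their limit of detection. An empty cell counts as not detected. Assays fell into sets of 245 and 120 by the last decimals of their values, and these sets stand for the 2 plates.

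Levels were computed as the mean Ct of the 252 assays detected in all 17 samples minus each Ct. Tested were assays with values in at least 2 wild-type, 5 tumor-free and 5 tumor mice, which left 338 and set aside 19. The tested assays lacked 115 values in 75 assays among the 10 mice, and each fit used the detected values. limma (3.58.1, R 4.3.3; lmFit and eBayes) was fitted on 3 groups and tested on simulated data, with Benjamini-Hochberg adjustment over 338 assays at 0.05. Sample measures and controls were each compared between tumor and wild-type mice in exact permutation tests (two-sided), adjusted over 3 and 8 tests. Python 3.11.15 and scipy 1.17.1 were used. Folds assume full PCR efficiency.

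Named were the 10 miRNAs of smallest p in each direction, their other arms and same-name assays, the strongest and most abundant member of each of 21 lists, and 11 miRNAs named beforehand. miR-30e-3p, miR-142-3p, miR-495-3p and others that fill out a list, a seed group or a cluster were named after their values were seen. Comparison and lists were chosen with earlier results of these data known. Alternatives were other scalings (median, raw Ct, spike-ins, reference miRNAs, quantile, plate by plate), undetected values at Ct 37, a limit of Ct 35, other filters, the 10 mice alone, trend and robust variance, the hemolysis index as covariate, exact permutation per assay, each mouse left out and, added after seeing the data, codes of the labels as a block.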

Additional observations from a re-analysis of the deposited data

Results flagged for a closer look

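In the tumor group, 7 of 87 measures checked held a mouse that stood far from the other tumor mice, while chance alone marks about 1 group in 20. Tumor replicate 5, whose label carries a question mark, was apart in 3. Its miR-326-3p stood at 1.60, with the others between -2.28 and -0.73, its miR-126a-3p at 0.95, with the others between 3.04 and 4.08, and its U6 snRNA had a Ct of 25.5, with the others between 30.9 and 34.7. Without it, 31 assays passed, and miR-326-3p was among them.

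The other 4 mark 1 mouse each. miR-101a-3p stood at 2.23 in tumor replicate 1, with the others between 3.30 and 3.65. miR-362-5p stood at -6.11 in tumor replicate 2, with the others between -4.92 and -4.26. miR-193a-3p stood at -5.07 in tumor replicate 4, with the others between -3.53 and -2.83. miR-29a-5p stood at 0.86 in tumor replicate 7, with the others between -0.71 and -0.12.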

How the results depend on the processing

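The 28 calls (14 higher, 14 lower) became 15 (0 and 15) on raw Ct, 8 (0 and 8) on spike-ins, 21 (5 and 16) with reference miRNAs, 1 (0 and 1) with the 10 mice alone and 0 (0 and 0; 45 at an unadjusted p under 0.05, smallest adjusted p 0.201) with exact permutation per assay, where no p can lie below 0.00833. Leaving out 1 mouse gave 8 to 49 calls, 3 to 21 higher and 5 to 28 lower. The other 9 ways of processing gave 26 to 33. None of the 28 turned sign in any alternative in which it was fitted. The calls of both miR-802-5p assays, miR-192-3p, miR-455-3p, miR-500-3p and miR-2137 were kept in all 17 fits without 1 mouse. In limma 7 of the 28 calls, all lower, were kept with spike-ins. With raw Ct 12 were kept, all lower, these 7 among them. The 7 were the rat miR-802-5p, miR-192-3p, miR-455-3p, the rat miR-352, let-7f-5p, miR-142-3p and miR-31-3p. With raw Ct the adjusted p of these 7 ran from 0.0144 to 0.0158. With spike-ins it was 0.0237 for miR-31-3p and 0.0163 for the others of the 7. Kept with raw Ct but not with spike-ins were the mouse miR-802-5p, miR-192-5p, miR-194-5p, miR-196b-5p and miR-31-5p. Each of these had an adjusted p of 0.044 with raw Ct. Relative to the panel mean 2 controls passed, and 1 untested assay differed in detection with a limit of Ct 35. Other named differences, none of which had passed, turned sign. On the raw Ct and spike-in scales these were miR-21a-5p (-0.18, -0.070), miR-221-3p (-0.19, -0.077), miR-23a-3p (-0.18, -0.066), miR-501-3p (-0.39, -0.28), miR-466h-5p (-0.53, -0.20), miR-34a-5p (-0.40, -0.29), miR-29c-3p (-0.43, -0.31), miR-29b-3p (-0.58, -0.47), miR-33-5p (-0.25, -0.14), miR-142-5p (-0.52, -0.41), miR-297a-5p (-0.57, -0.46), miR-150-5p (-0.62, -0.51), miR-322-5p (-0.98, -0.87), miR-10b-5p (-1.03, -0.92), miR-365-3p (-1.01, -0.90) and miR-362-5p (-0.91, -0.78). With the hemolysis index they were miR-133b-3p (-0.058), miR-93-5p (0.18), miR-10b-5p (-0.15), miR-451a (0.61) and miR-365-3p (-0.30). With quantile normalization they were miR-451a (0.22) and miR-362-5p (-0.25), and with the median miR-29a-5p (0.046) and miR-125b-5p (0.078). Plate by plate it was miR-29a-5p (0.086), with reference miRNAs miR-362-5p (-0.15), with a limit of Ct 35 miR-193a-3p (0.12), and with undetected values at Ct 37 miR-217-5p (0.60). Without 1 mouse the range crossed 0 for miR-10b-5p (-0.24 to 0.80), miR-451a (-0.93 to 0.091), miR-182-5p (-0.90 to 0.091), miR-362-5p (-0.29 to 0.63), miR-193a-3p (-0.23 to 0.099), miR-375-3p (-0.60 to 0.39), miR-29a-5p (-0.31 to 0.34) and miR-125b-5p (-1.08 to 1.24). The causes were not tested. Both fits with codes of the labels as replicate block were chosen after seeing the data. With the F code as a replicate block 3 passed (0 higher, 3 lower: the rat miR-802-5p, miR-194-5p and miR-31-3p; 58 at an unadjusted p under 0.05), and with the number as a random replicate block 28 did, the same 28. miR-375-3p (0.15) and miR-125b-5p (0.0029) turned sign with these. The deviations of same-coded mice correlated above 0.1 in 2 of 5 tumor and wild-type pairs (-0.68 to 0.63) and, for the number, in 2 of 4 tumor and tumor-free pairs, so the data do not show that the codes pair the mice. Same-coded pairs within a group were not examined in this way. The 3 wild-type mice limit the precision throughout.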
